A study of Mus musculus with 3 samples.

Results

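The cells described here were Lgals1-type glioma cells that carry human EGFR, a population of the leukocyte-depleted (CD45-) sort of mouse gliomas. A cell was a member when it came from a CD45- library, held at least 500 unique molecular identifiers (UMIs, 1 per captured mRNA molecule) and 500 genes, had at most 20% mitochondrial UMIs, and showed at least 2 UMIs of the human EGFR transgene (hsEGFR) and more UMIs of Lgals1 than of Pdgfra. Of 20811 deposited cells, 9091 came from CD45- libraries, 6676 of these passed the depth and mitochondrial limits, and 427 were members. The members were 1 cell of the early, 69 cells of the medium and 357 cells of the large tumor stage. Because the rule read hsEGFR, Lgals1 and Pdgfra in the same cells, all levels set against cells chosen by the opposite rule are given as description, with no test.

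The tumors arose in adult mice, whose sex is not given per sample in the sources used here, with a conditional (Cre/Lox) human EGFR transgene, Cdkn2a-/- and a conditional luciferase reporter, on a mixed background of the strains SJL, Balb/cJ, FVBN/J, C57Bl/6J and 129S4. Lentivirus carrying iCre, from pTyf TGFa-IRES-iCre or pTyf-iCre plasmids, was injected into the brain to switch on the transgene, and the groups share genotype and treatment, with stage set by bioluminescence. Each stage was 1 tumor sample, the early one pooled from several mice, and its 4 CD45- libraries were technical repeats spread over 3 sequencing runs. Medium libraries 1 to 4 came from runs 1, 2, 2 and 3, and large libraries 1 to 4 from runs 1, 1, 2 and 3. Stage, animal and, on this mixed background, the alleles an animal carried cannot be told apart, and intervals below are exact 95% intervals of counting error only.

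EGFR is a receptor tyrosine kinase that signals through the RAS and MAPK pathway and is often amplified in glioblastoma. Glioma cells spread over several states, among them a progenitor-like state marked by Pdgfra and a mesenchymal-like state rich in cytoskeletal and extracellular matrix genes. Lgals1 encodes galectin-1, a secreted lectin that binds sugar chains on matrix and cell surface proteins, while Tnc (tenascin-C) and Thbs2 (thrombospondin-2) encode glycoproteins of the matrix around cells. In the GRCm38 genome Lgals1 lies at chr15:78926725-78930465 on the plus strand, Tnc at chr4:63959785-64047015 on the minus strand, Thbs2 at chr17:14665500-14694235 on the minus strand and Pdgfra at chr5:75152292-75198215 on the plus strand, all as protein-coding genes.

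Of the gene lists compared between medium and large members, those of interferon response and MHC class I had the medians farthest from 0, and the promoters of 4 such genes are shown, chosen after their values were seen, because they hold matches to motifs known from interferon signaling. An interferon-stimulated response element (ISRE, searched on both strands as TTTC, any 2 bases and TTTC again) is bound by interferon regulatory factors, and a gamma-activated site (GAS, searched on both strands as TTCNNNGAA) is known from the response to interferon gamma. Each line gives the 250 bases before the start of the gene (RefSeq, build GRCm38.p6), written 5′ to 3′ on the strand of the gene, with matches to either motif in capitals. B2m, the shared light chain of class I antigen-presenting molecules, lies on the plus strand (chr2:122147437-122147686). Isg15, a ubiquitin-like protein, lies on the minus strand (chr4:156200819-156201068), and its 3 ISRE matches overlap each other. Igtp, an interferon-induced GTPase, lies on the plus strand (chr11:58199306-58199555) and holds a GAS followed by an ISRE. Psmb8, a subunit of the immunoproteasome, lies on the plus strand (chr17:34197945-34198194) and holds a GAS; GENCODE M21 starts this gene earlier, at base 34197721, so that the window lies inside the gene in that annotation.
B2m: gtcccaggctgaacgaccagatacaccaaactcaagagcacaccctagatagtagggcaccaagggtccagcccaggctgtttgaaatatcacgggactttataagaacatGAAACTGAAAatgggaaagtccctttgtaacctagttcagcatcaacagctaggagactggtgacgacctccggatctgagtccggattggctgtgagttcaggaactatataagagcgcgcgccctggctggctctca
Isg15: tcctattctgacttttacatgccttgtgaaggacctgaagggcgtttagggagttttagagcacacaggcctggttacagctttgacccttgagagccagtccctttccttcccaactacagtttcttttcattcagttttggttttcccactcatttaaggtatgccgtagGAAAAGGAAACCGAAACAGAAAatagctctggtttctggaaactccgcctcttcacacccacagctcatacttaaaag
Igtp: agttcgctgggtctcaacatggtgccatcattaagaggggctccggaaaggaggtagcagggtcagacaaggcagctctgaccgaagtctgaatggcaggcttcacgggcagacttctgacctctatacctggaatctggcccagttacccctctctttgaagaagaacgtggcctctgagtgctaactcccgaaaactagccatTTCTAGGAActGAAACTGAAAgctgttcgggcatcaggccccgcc
Psmb8: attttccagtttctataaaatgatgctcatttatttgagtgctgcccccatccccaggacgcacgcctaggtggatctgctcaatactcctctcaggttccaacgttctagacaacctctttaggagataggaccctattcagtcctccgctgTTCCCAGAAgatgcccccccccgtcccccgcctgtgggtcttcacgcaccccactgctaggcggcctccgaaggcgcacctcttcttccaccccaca

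Of the 27025 RefSeq promoters of this length, 3.04% held the ISRE and 7.18% the GAS. Among the interferon list, the ISRE was in 9 of the 18 promoters with a sequence (50%) and the GAS in 5 (27.8%). In the list of MHC class I genes, 2 of 7 (28.6%) held the ISRE and 0 the GAS. The mesenchymal list held the ISRE in 2 of 37 promoters, the matrix glycoproteins in 2 of 30 and the collagens in 0 of 22. A match describes these letters in this window and is not a measured binding site.

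Before any result, the cell barcodes were compared between libraries, since separate libraries should rarely share one. Pairs of CD45- libraries of different stages shared 1 to 11 barcodes (median 4 over 48 pairs), whereas pairs of the same stage shared 1 to 162 (median 20 over 18 pairs). The 357 large members had 309 distinct barcodes, and 136 of them (38.1%) carried a barcode found in another large library, compared with 5 of 69 medium members (7.25%). The other cells with the barcodes of large members were themselves Lgals1-type in 104 of 177 cases (58.8%), against 13.7% of all large CD45- cells, and Pdgfra-type in 4 (2.26%), against 11.5%. Large members that shared a barcode across libraries had expression profiles with a median correlation of 0.132 over 52 pairs, as against −0.00938 over 46646 pairs with different barcodes; these pairs share stage and sort. Where such a barcode marks 1 cell, that cell is counted more than once among the members. Merging cells with the same stage and barcode left 68 medium and 311 large members, and leaving such cells out altogether left 64 and 221. Values recomputed both ways stand beside the share of hsEGFR cells, the interferon and MHC class I medians and the G2 and M phase share.

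Members were sequenced to similar depth at both stages. The medium members held 598149 UMIs in all with a median of 7763 per cell (1231 to 34976), and the large members 3293952 with a median of 8157 (1240 to 31923). Mitochondrial UMIs had a median of 4.87% in medium and 2.94% in large members. Within members, hsEGFR had a median of 8 UMIs at the medium and 10 at the large stage, Lgals1 a median of 4 and 6, and Pdgfra was at 0 in 79.7% and 73.4% of cells. Pdgfra-type cells, which had at least 2 hsEGFR UMIs and more Pdgfra than Lgals1, served as the comparison and numbered 137 at the medium and 299 at the large stage, with 7290 and 5668 median UMIs.

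Of the 4 markers of the population, hsEGFR and Lgals1 were present in every member because the rule required them. Tnc and Thbs2, which the rule did not use, were detected at both stages but not in every cell. Tnc was seen in 28 of 69 medium and 263 of 357 large members, and Thbs2 in 29 and 291. The lentiviral iCre was seen in 55 of 69 medium members (79.7%, 68.3 to 88.4) and 253 of 357 large members (70.9%, 65.9 to 75.5), while in oligodendrocytes without hsEGFR, which should lack it, it was seen in 0.295% and 0.838%. Human TGFA was not seen in the 69 medium members, which allows a share of up to 5.21% of cells with a UMI and sets no limit on cells that express it, and was seen in 1 large member. As a measure of free hsEGFR RNA, 0 of 50 medium and 0 of 51 large cells with choroid plexus markers reached 2 hsEGFR UMIs, which allows a share of up to 7.11% and 6.98%. Cells with endothelial markers reached 2 hsEGFR UMIs in 1.94% and 3.45% of cases, and those with leukocyte markers in 0.926% and 27.7% (13 of 47). The shares were 11.7% and 18.9% with mature oligodendrocyte markers, 8.33% and 0% with ependymal markers, and 5.41% and 3.79% with neuron markers. By the rule, cells at 2 hsEGFR UMIs were members, Pdgfra-type cells or cells with equal counts of Lgals1 and Pdgfra. Members were 10 of the 13 large cells with leukocyte markers and 29 of the 171 with oligodendrocyte markers. Glioma cells with marker UMIs and other cells with free hsEGFR RNA cannot be told apart in these shares, so they do not measure free RNA.

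Markers of other cell types were also counted in members, and their part in the results was not tested. Levels are given as CPM, the UMIs of a gene or list per 1000000 UMIs of the cells summed. Mature oligodendrocyte markers summed to 416 CPM in medium (19.6 to 1003 over libraries) and 230.1 CPM in large members (113 to 319), endothelial markers to 90.3 CPM (19.6 to 157 over libraries) and 48.9 CPM (34.6 to 62.1) and neuron markers to 3.34 CPM (0 to 9.78) and 25.5 CPM (3.99 to 114). Mural markers summed to 50.2 CPM (0 to 206) and 3.95 CPM (1.59 to 6.94), and ependymal markers to 63.5 CPM (29.3 to 78.6) and 25.8 CPM (18.6 to 39.9), so for oligodendrocyte and mural markers the medium libraries spread far more widely than the large ones. In medium members Pecam1 had 17 endothelial marker UMIs, Flt1 15, Cldn5 10, Ly6c1 8, Egfl7 4 and Cdh5 and Kdr 0, and the endothelial sum of medium Pdgfra-type cells was 29.03 CPM. The 12 leukocyte markers summed to 30.1 CPM (9.78 to 55.0) and 82.3 CPM (66.6 to 101), with 7 and 12 of them detected, and of these P2ry12, a microglial receptor, made up 155 of 271 UMIs in 72 large members, while Ptprc, which encodes CD45, had 2 UMIs at each stage. Fibroblast markers, 3 of which are collagens, summed to 819 CPM (419 to 1281) and 613 CPM (511 to 688). Among them Dcn was in 3 medium and 4 large members, with 65.6% and 95.4% of its UMIs in 1 cell, Lum in 1 and 18, Islr in 7 and 15, Col1a1 in 6 and 73, Col1a2 in 32 and 134 and Col3a1 in 27 and 202 members. For leukocyte, endothelial, mature oligodendrocyte, ependymal, choroid plexus and neuron markers a fixed limit was set. It was 5 UMIs and 0.2% of the UMIs of the cell, and 7 of 69 medium and 9 of 357 large members reached it. Fibroblast and mural markers were not part of this limit, nor of the later alternative without cells that carry markers of another type. At least 5 fibroblast marker UMIs were held by 28 medium and 127 large members.

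Lgals1-type cells made up a larger share of the transgene-bearing cells at the large stage. They were 69 of 304 medium cells with at least 2 hsEGFR UMIs (22.7%, 18.1 to 27.8) and 357 of 878 large cells (40.7%, 37.4 to 44.0). The 4 medium libraries gave 31.6%, 20.5%, 18.3% and 23.4%, and the 4 large libraries 41.2%, 43.8%, 42.0% and 33.3%, so every large library lay above every medium library. Within run 1 the shares were 31.6% in the medium library and 41.2% and 43.8% in the large ones, within run 2 they were 20.5% and 18.3% against 42.0%, and within run 3 they were 23.4% against 33.3%. With every cell thinned to 2000 UMIs before the rule was applied, the shares were 17.3% (13.0 to 22.3) at the medium and 35.3% (31.9 to 38.8) at the large stage, after 32 and 114 shallower cells were left out. Merging shared barcodes gave 22.9% and 43.5%, and leaving them out 22.4% and 42.2%. As a share of all filtered CD45- cells, members were 0.0362% at the early, 4.27% (3.34 to 5.37) at the medium and 15.5% (14.1 to 17.1) at the large stage; in such shares fewer cells of another type and more members cannot be told apart.

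**Figure D1:**
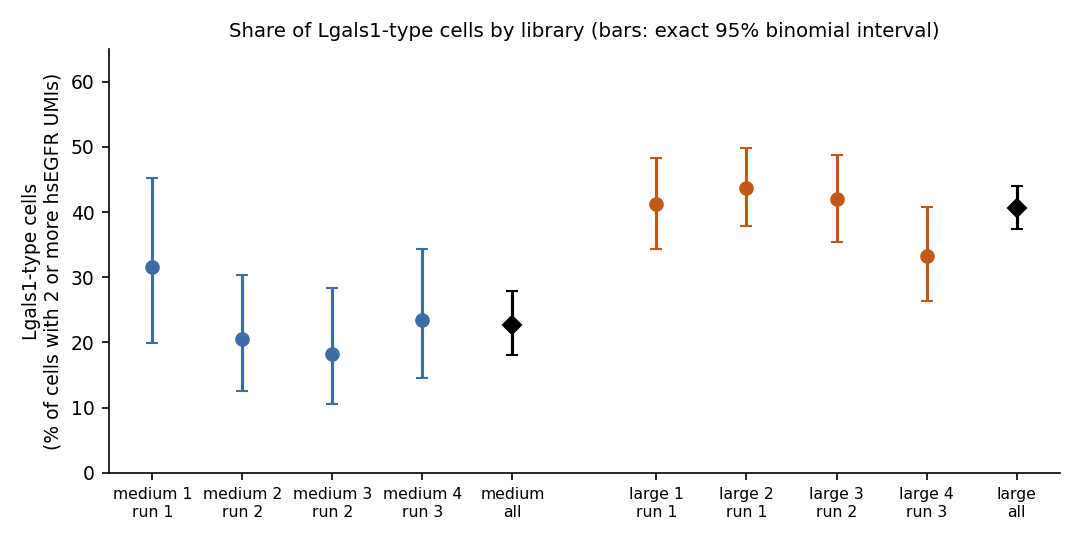
Lgals1-type cells as a percentage of cells with 2 or more hsEGFR UMIs (y axis) in each CD45- library and pooled (diamonds), with exact 95% binomial intervals as bars. The 4 medium libraries sat between 18.3% and 31.6% and the 4 large libraries between 33.3% and 43.8%.

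Cells just inside and just outside each threshold of the rule are given next, as description. Members with Lgals1 just 1 UMI above Pdgfra (9 medium and 52 large cells) had Vim at 3295 and 2456 CPM, whereas cells with equal counts (98 and 222) had Vim at 876 and 889 CPM. Of the equal-count cells, 96 of 98 medium and 213 of 222 large cells had neither gene, at median depths of 5499 and 3648.5 UMIs. At the other threshold, large members with exactly 2 hsEGFR UMIs (32 cells) had Tnc at 869.8 CPM, and the 39 large cells with 1 hsEGFR UMI, just outside, had 941 CPM. At the medium stage the 7 cells just inside had Tnc at 62.4 CPM and the 6 just outside at 1272 CPM. The same large cells, inside and outside, had Thbs2 at 1326 and 822 CPM, Sox10 at 1008 and 561 CPM, Lgals1 at 1008 and 1445 CPM and Vim at 3815 and 3464 CPM.

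Matrix and mesenchymal genes were higher in Lgals1-type than in Pdgfra-type cells of the same stage, as the log2 ratio of their CPM. Collagens were at least 2-fold higher for 14 of 20 genes with enough UMIs at the medium stage (median log2 ratio 3.27) and 18 of 23 at the large stage (2.57), when 7.83% of 8518 genes at the medium and 9.78% of 12572 genes at the large stage were at least 2-fold higher. Matrix glycoproteins were higher for 16 of 24 genes (2.60) and 25 of 32 (2.20) at the medium and large stage, and the mesenchymal list for 15 of 31 (0.99) and 21 of 37 (1.32). Oligodendrocyte progenitor genes were at least 2-fold lower for 16 of 20 genes (median −2.18) and 18 of 23 (−2.72), against 17.2% and 13.6% of all genes, and 0 were higher. The median over all genes was −0.15 and −0.14. Of 8449 genes with enough UMIs at both stages, 391 were higher and 689 lower at both, and 11 pointed in opposite directions. Integrins and other matrix receptors were higher for 4 of 10 genes (0.74) and 6 of 13 (0.98), and hypoxia and glycolysis genes lower for 5 of 18 (−0.41) and 6 of 26 (−0.47). As the rule chose the cells by Lgals1 against Pdgfra, these counts describe what goes with that choice. Statements below that libraries of members lay above those of Pdgfra-type cells are description too. The share of all genes with such a separation is not given. Fibroblast markers, 3 of which are collagens, were also higher, at 819 and 613 CPM in members against 89.0 and 99.6 CPM in Pdgfra-type cells. In oligodendrocytes without hsEGFR they were at 625 and 525 CPM. At least 5 of these UMIs were held by 17 of 679 and 13 of 716 oligodendrocytes, and by 28 of 69 and 127 of 357 members. The part of fibroblast markers in these lists was not tested.

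**Figure D2:**
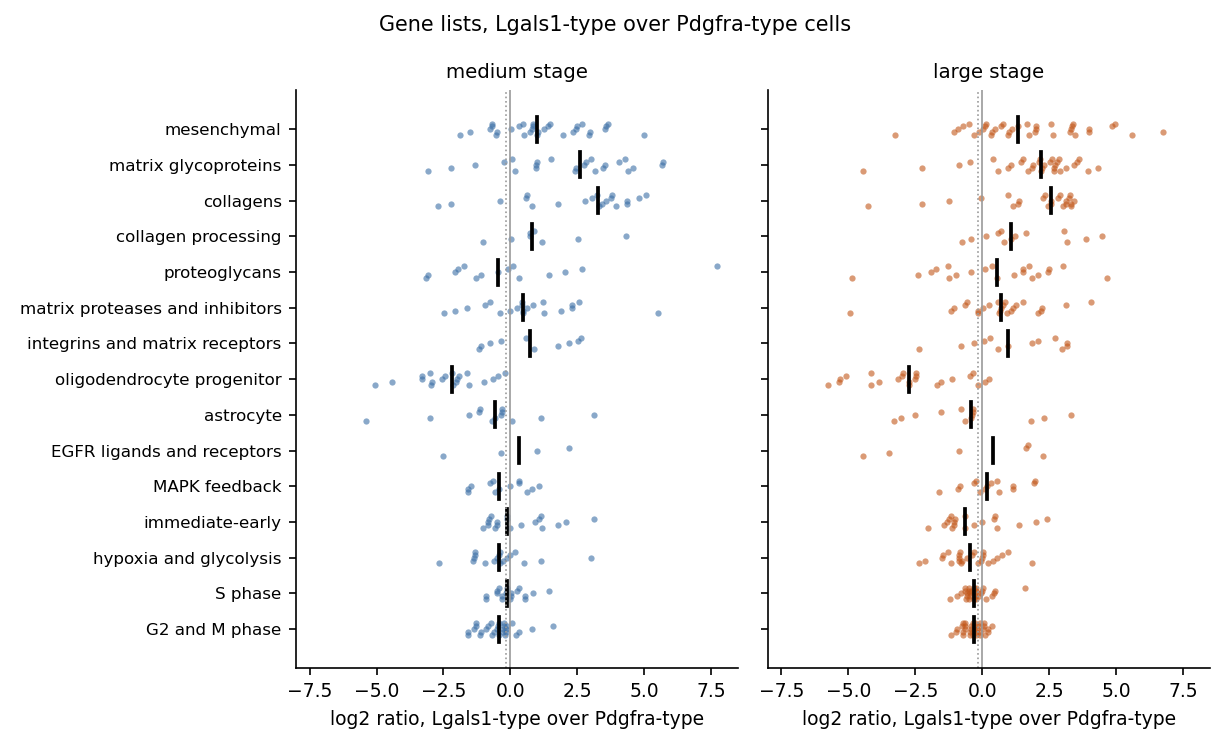
Log2 ratio of CPM, Lgals1-type over Pdgfra-type (x axis), for each gene (points) of 15 lists (rows) at the medium (left) and large (right) stage. Black bars are list medians, the solid line is 0 and the dotted line the median of all genes; collagens (medians 3.27 and 2.57) and matrix glycoproteins (2.60 and 2.20) lay to the right and progenitor genes (−2.18 and −2.72) to the left.

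Among secreted matrix glycoproteins, the marker Thbs2 was at 309, 288, 215 and 262 CPM in the 4 medium libraries and 1200.5, 1131, 1412 and 1178 CPM in the 4 large ones. In Pdgfra-type cells it was at 4.84 and 77.6 CPM. Members were higher by 5.68 (5.23 to 6.32 with 1 run left out) and 3.97 (3.79 to 4.09) on the log2 scale. Every library of members lay above every library of Pdgfra-type cells at both stages. Tnc was at 220.0, 87.8, 166 and 78.6 CPM in the medium libraries of members and 814, 877, 994 and 1017 CPM in the large ones, against 64.8 and 45.6 CPM in Pdgfra-type cells. The log2 ratio of Tnc was 4.32 (4.02 to 4.65) at the large stage, and leaving out 1 run gave 4.02 to 5.24. At the medium stage it was 1.01 (0.52 to 1.50), and the libraries of both populations overlapped. There it was 0.46 without run 1, 1.69 without run 2 and 0.89 without cells that carry markers of another type. Sparc, a collagen-binding glycoprotein, was at 3183 and 3724 CPM in members and 455 and 645 CPM in Pdgfra-type cells. Fbln2 (fibulin-2) was 10.9-fold and 6.37-fold higher in members, and the basement membrane protein Nid1 had log2 ratios of 5.67 (4.07 to 9.05, with 2 UMIs in Pdgfra-type cells) and 3.53. Genes for matrix proteins typical of brain were exceptions, since Tnr (tenascin-R) was 8.38-fold and 21.8-fold lower in members and Sparcl1 4.63-fold and 4.69-fold lower.

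Collagens of several families shared this direction. The basement membrane collagen Col4a1 was at 386 and 563 CPM in medium and large members, and at 38.7 and 110.1 CPM in Pdgfra-type cells. Its medium log2 ratio was 3.30, or 3.08 to 4.34 with 1 run left out. The fibrillar Col3a1 was at 227 and 301 CPM against 7.74 and 29.9 CPM, and Col5a1 was 10.7-fold higher in members at each stage. Col9a3 and Col11a2, collagens best known from cartilage, were instead 4.62-fold and 6.52-fold lower in medium members. The machinery that folds and modifies collagen pointed the same way in part, with Serpinh1, the collagen chaperone HSP47, 5.76-fold and 8.91-fold higher and the lysyl hydroxylase Plod1 2.27-fold and 3.13-fold higher. Over the collagen processing list 3 of 8 genes were at least 2-fold higher at the medium stage (median 0.80) and 7 of 13 at the large stage (1.07).

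Proteoglycans were divided, with 4 higher and 7 lower of 15 at the medium stage and 10 higher and 6 lower of 21 at the large stage, against 7.83% and 17.2% of all genes at the medium and 9.78% and 13.6% at the large stage. The basement membrane proteoglycan Hspg2 (perlecan) was 6.46-fold and 5.65-fold higher in members and the syndecan Sdc4 4.06-fold and 8.12-fold higher. The chondroitin sulfate proteoglycans of brain were lower, Cspg5 by 8.42-fold and 5.31-fold and Bcan (brevican) by 2.41-fold and 3.81-fold. Among inhibitors of matrix proteases, Timp1 was at 75.6, 426, 196 and 246 CPM in the 4 medium libraries and 199.8, 253, 246 and 209.9 CPM in the 4 large ones, and at 4.84 and 13.6 CPM in Pdgfra-type cells. Its log2 ratio over Pdgfra-type cells was 5.52 at the medium and 4.07 at the large stage. Leaving out 1 run gave 4.88 to 5.69 and 3.86 to 4.88. Timp4 went the other way, at 16.7 and 4.25 CPM in members and 96.8 and 133 CPM in Pdgfra-type cells. Mmp14, a membrane-bound protease that cleaves collagen, was 4.94-fold and 8.81-fold higher in members. For receptors that hold cells to matrix, dystroglycan (Dag1) was 4.54-fold and 4.22-fold higher and the laminin-binding integrin Itga6 was at 135 and 125 CPM against 21.3 and 13.6 CPM.

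Of the mesenchymal list, the intermediate filament gene Vim was at 2069.7, 3574, 3813 and 2749.6 CPM in the medium libraries and 3481, 3324, 3996 and 3716 CPM in the large ones, and at 549 and 565 CPM in Pdgfra-type cells. Cd44, the hyaluronan receptor, was at 212 and 391 CPM in members and 37.7 and 36.7 CPM in Pdgfra-type cells. Both genes were higher in every library of members than in any library of Pdgfra-type cells of the same stage. The annexin Anxa5 was 7.86-fold and 15.9-fold higher, the calcium-binding S100a10 6.35-fold and 9.96-fold higher, and Emp3, a small membrane protein, 31.5-fold and 15.9-fold higher. Zeb1, a transcription factor known for driving mesenchymal change in epithelial cells, was lower, at 71.9 and 101 CPM in members and 209 and 191 CPM in Pdgfra-type cells. Lgals1 itself, which the rule used, was 25.8-fold and 27.6-fold higher.

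The progenitor genes that were low in members included those of the transcription factors Olig1 and Olig2, which define the oligodendrocyte lineage. Olig1 was at 155 CPM (9.78 to 406 over libraries) and 49.5 CPM (14.6 to 74.9) in members against 1547 and 1683 CPM in Pdgfra-type cells, and 12 of 69 and 23 of 357 members had a UMI. The log2 ratios were −3.31 and −5.08, and leaving out 1 run at a time gave −4.32 to −2.85 and −6.34 to −4.81. Olig2 was at 78.6 and 31.6 CPM against 609 and 563 CPM, and Gpr17, a receptor of committed progenitors, at 167 and 62.2 against 1311 and 894 CPM. Sox10, the transcription factor shared by oligodendrocyte and Schwann cell lineages, differed less, at 813 and 766 CPM in members and 939 and 982 CPM in Pdgfra-type cells. The log2 ratios were −0.21 and −0.36, and Sox10 was detected in 63 of 69 medium and 328 of 357 large members. The astrocyte list was mixed, with Gja1 (connexin 43 channel) 8.79-fold and 10.0-fold higher and Slc1a2, a glutamate transporter, 8.07-fold and 5.66-fold lower.

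Ranked by the smaller of the ratios at both stages, the genes most in excess in members included Crym, Timp1, Emp3, Thbs2, Sema3b, Crip1, Col3a1, Pdlim4, Fxyd3, Col8a1 and Adgrg6. Crym, a thyroid hormone-binding protein, was at 174 and 1031 CPM in members and 2.90 and 52.9 CPM in Pdgfra-type cells. Its log2 ratio was 5.69 at the medium stage (4.88 without run 3) and 4.28 at the large stage (3.54 without run 1 and 5.35 without run 3). The genes lowest in members were Neu4, Nell2, Stmn3, Lrrn1, Igsf21, Dscam, Cadm2, Grin3a, Itpr2, Ramp1, Brinp3 and Gpm6a, several of them adhesion or membrane proteins of neural cells. For these 12 genes the log2 ratio lay between −4.53 (Cadm2) and −3.69 (Brinp3) at the medium stage and between −6.55 (Grin3a) and −3.59 (Gpm6a) at the large stage.

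**Figure D3:**
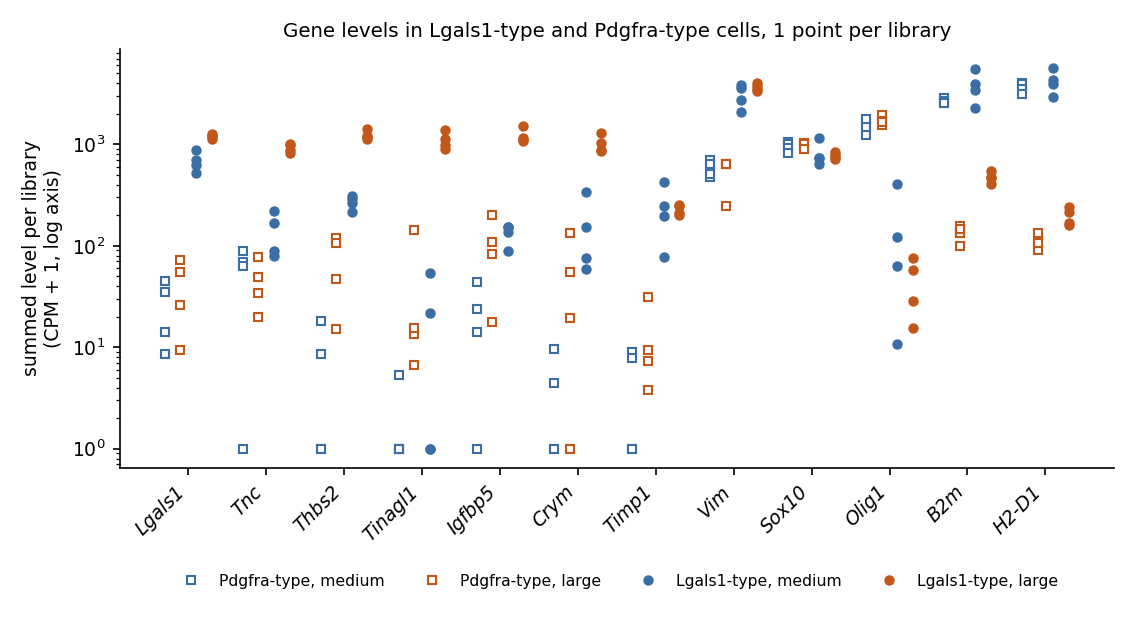
Summed level of 12 genes in each library (y axis, CPM + 1, log scale), with filled circles for Lgals1-type and open squares for Pdgfra-type cells, blue for medium and orange for large. Sox10 lay at similar levels in both populations, Olig1 was lower in Lgals1-type cells, and B2m and H2-D1 were lower at the large stage in both.

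The transgene and its pathway were measured next. hsEGFR was at 1363 CPM (95% interval 1271 to 1459) in medium and 1457 CPM (1416 to 1499) in large members, and at 2699 and 2819 CPM in Pdgfra-type cells. The hsEGFR level of members was lower than that of Pdgfra-type cells, by 1.98-fold and 1.93-fold. The rule itself used hsEGFR, at 2 UMIs whatever the depth of the cell, so this is description. Median depths were 7763 and 8157 UMIs in members and 7290 and 5668 UMIs in Pdgfra-type cells, and the part of depth was not tested. Among ligands, Hbegf was 4.58-fold and 3.14-fold higher in members and mouse Tgfa 5.78-fold and 22.1-fold lower. Of the receptors, Erbb3 was at 269 and 291 CPM in members and 135 and 88.0 CPM in Pdgfra-type cells. Over genes known to be induced by MAPK signaling, 1 was higher and 3 lower of 13 at the medium stage (median −0.43), and 4 were higher and 1 lower of 15 at the large stage (0.20). Over all genes 7.83% were higher and 17.2% lower at the medium stage and 9.78% and 13.6% at the large stage, so the medium counts were near those shares. Cdkn2a, deleted in this model, had 0 UMIs in medium members and 9 in large members.

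Medium and large members were then compared with each other. Where libraries of the stages are said not to overlap below, this is description, since the share of all genes without overlap is not given. Of 11281 genes with at least 30 UMIs over both sums, 11.8% were at least 2-fold higher and 5.77% at least 2-fold lower in large members, and the median log2 ratio over all genes was 0.14. Summed over its genes, the interferon list was at 4113 CPM in medium members (2867 to 5133 over the 4 libraries) and 376 CPM in large members (338 to 404). The interferon list was at least 2-fold lower in 18 of 19 genes (median −3.57) and the MHC class I list in 8 of 8 (−3.12), in each case with 0 genes higher. Within run 2, the only run with at least 20 members of both stages, the medians were −4.01 and −3.33. Merging shared barcodes gave −3.69 and −3.15, and leaving them out −3.53 and −3.11. The same lists differed in Pdgfra-type cells (−4.26 and −3.75) and in oligodendrocytes without hsEGFR (−1.31 and −2.75), so a lower level at the large stage was not limited to members.

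**Figure D4:**
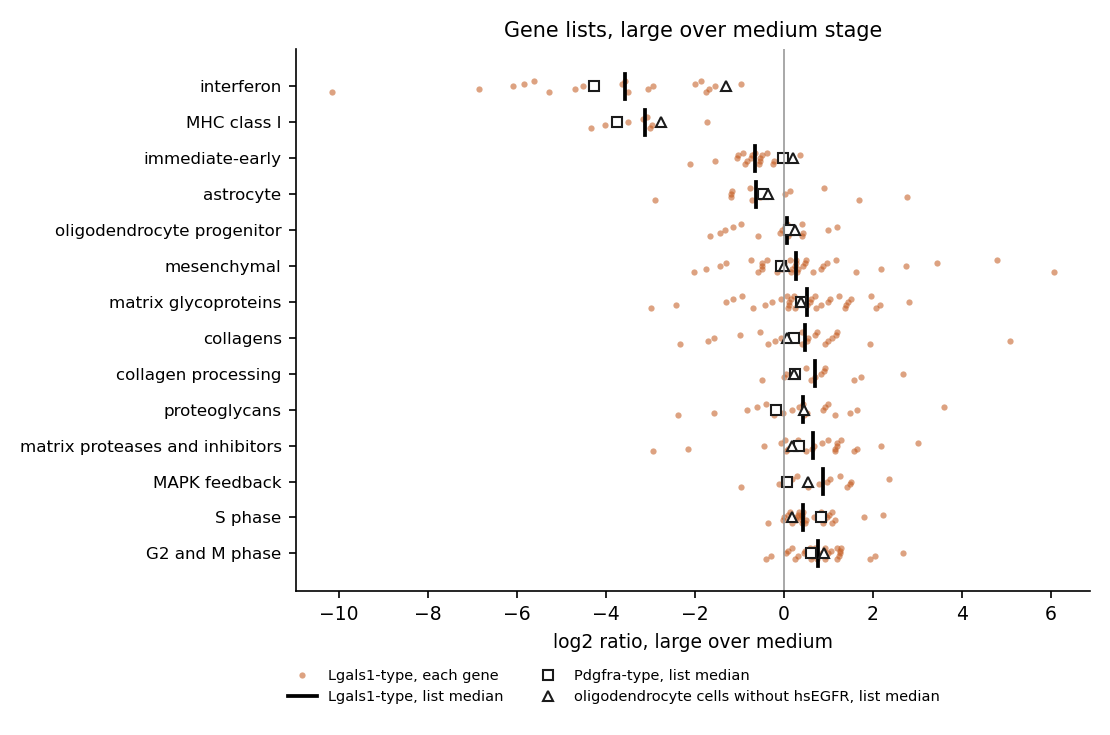
Log2 ratio of CPM, large over medium (x axis), for each gene (orange points) of 14 lists (rows) in Lgals1-type cells, with their list medians as black bars and the list medians in Pdgfra-type cells (squares) and oligodendrocytes without hsEGFR (triangles). Interferon (−3.57) and MHC class I (−3.12) genes lay far to the left in members, while mesenchymal genes (0.26) lay near 0.

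B2m was at 2304, 3429, 5495 and 3949 CPM in the 4 medium libraries and 473, 460.5, 549.7 and 404 CPM in the 4 large ones, a log2 ratio of −2.96 (−3.05 to −2.86). H2-D1, a class I heavy chain, was at 2895, 3887, 5612 and 4289 CPM in the medium and 159, 216, 241 and 167 CPM in the large libraries (−4.33, −4.46 to −4.21). The lowest medium library lay above the highest large library for both genes, and class I genes share near-identical reads, so how the counts divide among them is uncertain. Psmb8 was at 289, 533, 782 and 482 CPM and 11.1, 14.2, 3.99 and 6.94 CPM, Igtp at 399, 715, 244 and 288 and 6.34, 11.2, 5.32 and 1.73 CPM, and Isg15 at 268, 226, 391 and 189 and 31.7, 28.5, 37.3 and 38.2 CPM. These 3 genes, whose promoters are printed above, had no overlap between the libraries of the stages either, and were lower by 49.2-fold, 56.8-fold and 7.69-fold. The log2 ratio of Psmb8 was −5.62, or −6.65 to −5.06 with 1 run left out. Among the remaining interferon genes the log2 ratio was −6.09 for Psmb9, another immunoproteasome subunit, −5.27 for Ifit3 and −0.96 for Stat2, the gene of the list nearest to no change. Tap1, which carries peptides to class I molecules, was lower by 4.02 on the log2 scale and its partner Tapbp (tapasin) by 1.72. In Pdgfra-type cells B2m was at 2629 and 135 CPM and H2-D1 at 3625 and 111 CPM, and every large library of members lay above every large library of Pdgfra-type cells for both genes.

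Class II genes, normally restricted to antigen-presenting cells, had high counts in medium and few in large members. H2-Eb1, a class II chain, was at 241, 188, 694 and 628 CPM in the 4 medium libraries, in 33 of 69 members, and at 0 in the large members. Against the limit that a count of 0 allows (3 UMIs over all large members), the level was at least 469.9-fold higher in medium members for H2-Eb1 and at least 191-fold for H2-Aa. H2-Aa was seen in 20 of 69 medium members. The 12 leukocyte markers summed to 30.1 CPM there, with Csf1r at 7 UMIs, P2ry12 at 3, C1qb, C1qc and Ptprc at 2 each, Cx3cr1 and Lyz2 at 1 each and Tyrobp, Fcer1g, C1qa, Ctss and Laptm5 at 0, and their part in the class II counts was not tested. H2-Ab1 and Cd74, the invariant chain of class II, were chosen after their values were seen and were at 155 and 139 CPM in medium and 8.197 and 0.607 CPM in large members. In Pdgfra-type cells H2-Eb1 was at 338 CPM at the medium stage and 0 at the large stage.

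The 10 genes ranked lowest in large against medium members also held Iigp1, Tgtp1 and Tgtp2, all interferon-induced GTPases, and Apobec3, AI506816, Gm42031, Gm43305 and Gm26880, which lie on chromosomes 15, 5, 8, 14 and 4. Iigp1 was at 513 CPM in medium members and had 1 UMI in large members. Apobec3, a cytidine deaminase that restricts retroviruses, was at 7241, 8839.9, 9875 and 5489 CPM in the medium libraries and 25.4, 72.6, 19.97 and 10.4 CPM in the large ones. No medium library came near a large one. AI506816 was at 7563 and 37.9 CPM, almost the counts of Apobec3, while Gm42031, Gm43305 and Gm26880 were at 2871, 2877 and 2887 CPM in medium members, close to each other. Genes with such like counts may share reads, so how the counts divide between Apobec3 and AI506816, and among the other three, is uncertain. Tgtp1 and Tgtp2, near-identical copies, had equal counts in members at both stages and are uncertain for the same reason. In Pdgfra-type cells Apobec3 was at 3086 CPM at the medium and 13.1 CPM at the large stage.

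The matrix and mesenchymal lists had medians much nearer to that of all genes (0.14). In large against medium members, with 11.8% of all genes higher and 5.77% lower, the mesenchymal list had 7 genes higher and 4 lower of 36 (median 0.26), matrix glycoproteins 10 and 4 of 33 (0.52) and collagens 5 and 3 of 22 (0.46). Within run 2 the medians of these lists in members were 0.14, 0.15 and 0.37. In Pdgfra-type cells the medians were −0.06, 0.39 and 0.23. Single genes within these lists lay far to either side. Tnc was 6.98-fold higher in large members (130.4 and 916 CPM) and Thbs2 4.45-fold (273 and 1217 CPM), and their library ranges did not overlap. Postn (periostin) was 4.22-fold higher, but a single cell held 44.9% of its medium UMIs. Timp3 was 4.43-fold lower in large members (log2 ratio −2.15, −1.51 without run 2), S100a4 4.04-fold lower and Col8a1 2.97-fold lower. Igfbp7, an insulin-like growth factor binding protein of the matrix, was at 1320.2, 2420.0, 4185 and 989.9 CPM in the medium and 951, 887, 1001 and 803 CPM in the large libraries (2.19-fold lower), and without run 2 its log2 ratio was −0.36. The libraries of the stages overlapped for Col8a1 (115 to 812 CPM at the medium and 97.2 to 151 CPM at the large stage), for Igfbp7 and for Vim, whose log2 ratio was 0.26. Timp1 had a log2 ratio of −0.07 (−0.32 to 0.20), with alternatives on both sides of 0, so no direction is given. Matrix proteases and inhibitors had 9 genes higher and 2 lower of 24, among them the membrane-type protease Mmp17 (16.7 and 141 CPM) and Serpine2, an inhibitor of serine proteases (1165 and 2603 CPM).

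Ranked by the bound nearest to no change, the genes highest in large over medium members were Tinagl1, S1pr3, Itga8, Cpm, Ccn2, Hmga2, Igfbp5, Serpina3n, Moxd1 and Ociad2. Tinagl1, a matrix protein of basement membranes, was at 20.6, 0, 0 and 52.4 CPM in the 4 medium and 1396, 988, 1126 and 904 CPM in the 4 large libraries. It was found in 6 medium and 166 large members, and 1 cell held 53.8% of the medium UMIs. Its log2 ratio was 5.58, or 4.74 without run 2 and 7.03 without run 3. Itga8, an integrin subunit, was at 6.88, 0, 0 and 41.9 CPM and 455, 357, 580.3 and 390.3 CPM, and Igfbp5 at 151, 150.5, 88.0 and 136 CPM and 1518, 1119, 1163 and 1077 CPM. For each of these 3 genes the stages did not overlap between libraries, but the genes were ranked by this same difference between the stages. S1pr3, a sphingosine-1-phosphate receptor, and Ccn2, a matricellular growth factor, had 0 UMIs in medium members and 347 and 183 UMIs in large members, which made them at least 21.0-fold and at least 11.1-fold higher. Serpina3n, a protease inhibitor secreted by reactive astrocytes, was at 248, 31.3, 19.6 and 152 CPM and 1232, 1054, 1054 and 902 CPM. Tinagl1 and Itga8 were also higher at the large stage in Pdgfra-type cells, by 5.18 (3.25 to 11.08) and 4.38 (2.41 to 10.28) on the log2 scale with 1 UMI of each at the medium stage, whereas Hmga2, a chromatin protein of developing tissue, was at 5.02 and 110.2 CPM in members and 36.8 and 17.3 CPM in Pdgfra-type cells.

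Some genes induced by growth factor signaling, several of which feed back on the pathway, were higher in large members. Of the MAPK-induced list, 6 genes were higher and 0 lower of 14 in large members (median 0.87), against 11.8% and 5.77% of all genes, while the median in Pdgfra-type cells was 0.07 and in oligodendrocytes 0.54. Ccnd1 (cyclin D1) was at 1066, 583, 772 and 623 CPM in the medium libraries and 1771, 1735, 1754 and 1948 CPM in the large ones, and Dusp6, a phosphatase that switches off ERK, at 103, 144, 196 and 272 and 544, 472, 632 and 434 CPM. Spred1 and Dusp4, further inhibitors of the pathway, had log2 ratios of 1.51 and 2.36, and Myc had −0.96. Ccnd1 and Dusp6 were higher in every large library than in any medium library. Immediate-early genes, which respond within minutes to stimuli and to tissue dissociation, were lower for 4 of 19 genes and higher for 0 (median −0.65), against 5.77% of all genes lower and 11.8% higher. Btg2, an antiproliferative gene of this list, was 4.31-fold and Nr4a1 2.09-fold lower in large members.

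Cycling cells were counted after each cell was thinned to 2000 UMIs, with 3 or more UMIs of a list counted as cycling. With the G2 and M phase list, 11 of 68 medium members (16.2%, 8.36 to 27.1) and 100 of 341 large members (29.3%, 24.5 to 34.5) were counted, and the intervals overlapped. Before thinning the shares were 33.3% and 53.2%. Pdgfra-type cells gave 20.2% and 36.8%, cells with equal counts of Lgals1 and Pdgfra 11.3% and 4.94%, and oligodendrocytes without hsEGFR 1.12% and 2.00%. By run the medium shares were 22.2%, 9.38% and 22.2% and the large shares 30.3%, 30.8% and 23.1%, so the large share was the higher in each run, by little in run 3. Medium library 3 had 0 of 14 cells counted, which allows a share of up to 23.2%. After merging of shared barcodes the shares were 13.4% and 29.5%, and with them left out 15.9% and 29.3%. With the S phase list they were 29.4% and 37.0%, where oligodendrocytes gave 9.33% and 9.38%. In large over medium members the lists had medians of 0.43 (S phase, 6 of 29 genes higher) and 0.76 (G2 and M phase, 10 of 33 higher), with 0 genes lower, against 11.8% of all genes higher and 5.77% lower.

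**Figure D5:**
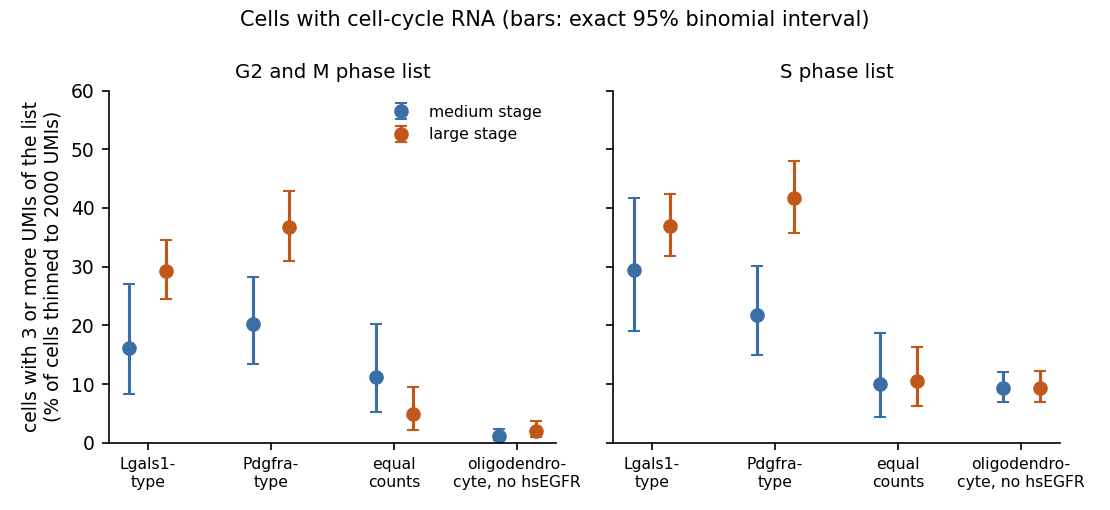
Cells with 3 or more UMIs of the G2 and M phase (left) or S phase (right) list, as a percentage of cells thinned to 2000 UMIs (y axis), in medium (blue) and large (orange) cells of 4 classes; bars are exact 95% binomial intervals. Lgals1-type cells gave 16.2% and 29.3% on the left, and oligodendrocytes without hsEGFR 1.12% and 2.00%.

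Large members were then split into cycling and other cells. Between the 154 large members counted with either list and the other 187, the mesenchymal list had a median log2 ratio of −0.08, matrix glycoproteins −0.30 and collagens −0.43, against 0.00 over all 10685 genes. Tnc was at 945 CPM in cycling and 891 CPM in other large members, and Thbs2 at 1092 and 1345 CPM. Sparc was at 3162 CPM in cycling and 4266 CPM in other members. Tinagl1 was at 1213 and 950.2 CPM, so the gene ranked highest in large over medium members was present in both. The cell-cycle lists defined the split and are not compared.

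Single members varied widely in these lists at a fixed depth of 2000 UMIs. Interferon genes had a median of 7.5 UMIs in medium members (0 to 28) and 0 in large members (0 to 6), and 7.35% of medium against 52.8% of large members had none. MHC class I genes had a median of 26 UMIs (0 to 63) and 2 UMIs (0 to 27). The mesenchymal list had 20 (3 to 45) and 21 UMIs (2 to 58), so the members of both stages covered much the same range. Matrix glycoproteins had 17.5 (1 to 54) and 24 UMIs (0 to 59), and 1 large member had none. At that depth Thbs2 was detected in 29.4% of medium and 66.0% of large members, Tnc in 22.1% and 53.4%, and Vim in 94.1% and 97.7%. In oligodendrocytes without hsEGFR, Thbs2 was detected in 1.68% and 1.796% and Vim in 3.36% and 4.99% of cells at the same depth (median 2964 and 2586.5 UMIs before thinning).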

How the data were processed

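Single-cell RNA-seq (inDrop) was deposited as a table of raw UMI counts per gene and cell, made by the authors with RapMap in bcbio-nextgen against the GRCm38 transcriptome with transgenes added, with no normalization, and the deposited library annotation (unit: other) gave run, sort and stage. GEO's processing notes name mm10. The study's methods name removal of ambient RNA and doublets, but do not state whether this preceded the deposited counts. Cells of the CD45+ sort, 11720 columns, were not used here. Counts were summed per class and stage, scaled to CPM and compared as log2 ratios with a prior of 0.5 counts, for genes with at least 30 UMIs over both sums; ratios have exact conditional binomial, levels exact Poisson and shares Clopper-Pearson intervals at 95%. UMIs count molecules, and the intervals and limits cover counting error only. Each stage is 1 tumor sample, so no test was made and no p-value is given. Scrublet (in scanpy 1.11.5) called 80 of 6676 cells (1.20%), 8 of them members, which were kept; an alternative left out the 5% with the highest scores. Named genes were the rule genes, in each list the 4 genes with the most UMIs and genes past 2-fold with at least 100 UMIs, and the ranked genes of each comparison, plus genes said to be chosen after their values were seen. The members, lists and rule were chosen with earlier results of these data known. Oligodendrocytes without hsEGFR were cells with 0 hsEGFR UMIs and at least 5 UMIs of mature oligodendrocyte markers. Coordinates are GENCODE M21 and RefSeq GRCm38.p6. Python 3.11.15, numpy 2.4.6, pandas 2.3.3 and scipy 1.17.1 were used. The calculation of ratios was checked on simulated Poisson counts. These had no variation between cells or libraries, so the check does not cover such variation in the data. Some items of the design and some named genes are not reported here. Alternatives changed the thresholds, filters, depth and runs.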

Additional observations from a re-analysis of the deposited data

Results flagged for a closer look

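The cycling share of large members by the G2 and M phase list set 1 library apart from the other 3 of its stage. It was 23.1% in large library 4 (run 3), with 12 of 52 thinned cells, and between 29.9% and 30.9% in the other 3 libraries (median 30.8%). The intervals of the library (12.5 to 36.8) and of the others overlapped, the library was the only large one of run 3, and its part in the result was not tested. In all, 42 groups of 4 libraries were looked at and 1 was set apart by Dixon's 95% critical value, which by its definition sets about 1 in 20 groups apart by chance.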

How the results depend on the processing

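None of these values carries a test, so a share counts as moved when it left its counting interval, a list median when it left 1 SD over libraries, a count of genes when it left 1.5 times the count and a gene when it crossed 2-fold. Under the alternatives, 41 main values moved and 337 did not, while 15 values of single genes moved and 1018 did not, and 0 list medians and 0 ratios past 2-fold changed direction. Within 2-fold, 10 recomputed ratios had the other sign, those of Timp1 in large over medium and of Ccnd1 and Psmb8 in the medium type comparison. As a share of filtered cells, members were 17.2% of large cells with hsEGFR at 1 UMI or more, 2.97% (medium) and 12.05% (large) at 5 or more, 2.47% and 11.5% with Lgals1 and Pdgfra 3 UMIs apart, 2.71% and 14.1% with no filter on cells, 11.01% and 28.5% without cells that carry markers of another type, and 13.7% of large cells without shared barcodes. As a share of hsEGFR cells, they were 13.2% and 30.2% with 3 UMIs apart, and the Lgals1-type over Pdgfra-type median of collagens was then 4.19 at the medium stage. With the mean over cells that median was 3.13 at the large stage, and leaving out each run gave 2.22 to 3.10. Leaving out each run gave −4.00 to −3.28 for interferon in large over medium members, and, for Lgals1-type over Pdgfra-type at the medium stage, 412 to 648 genes higher and 662 to 1533 lower; the lowest of these counts came without run 2, which left fewer cells. Thinned to 2000 UMIs, large over medium had 666 genes higher and 270 lower, the medium type comparison 238 and 419 with a mesenchymal median of 1.31, and the large one 744 and 907. Centred on the median of all genes, the mesenchymal median in large over medium was 0.12. With 10 UMIs or more per gene, large over medium had 2011 genes higher and 1360 lower and the medium type comparison 1283 and 2596, and with 100 or more 556 and 217, 247 and 431, and 767 and 845 at the large stage. The cycling share of large members was 37.2% at 2 UMIs, 23.5% at 5 UMIs and 21.6% when thinned to 1000, and without thinning the shares were 33.3% and 53.2%. Fewer cells or genes entered under several of these settings, and beyond that the cause was not tested. Merging or leaving out shared barcodes was chosen after seeing the data. No test was made, so no paired analysis was made either. Each run held libraries of both stages, and members and Pdgfra-type cells came from the same libraries. Stages were set side by side within runs only as values. Members numbered 69 at the medium stage, which limits the precision of every comparison with it.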

Other observations

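Several genes known from Schwann cells, the myelinating glia of peripheral nerve, were higher in Lgals1-type than in Pdgfra-type cells, and apart from those the ranking had named they were chosen after their values were seen. Dhh, a hedgehog ligand that Schwann cells send to the nerve sheath, was at 241, 169, 411 and 272 CPM in the 4 medium libraries of members and 414, 365, 355 and 349 CPM in the 4 large ones, and at 27.1 and 47.7 CPM in Pdgfra-type cells. Lgi4, a secreted protein needed for peripheral myelination, was at 229 and 256 CPM against 16.4 and 29.9 CPM. Adgrg6, an adhesion receptor that starts myelination by Schwann cells, was at 191 and 345 CPM against 15.5 and 36.7 CPM, in 33 of 69 and 247 of 357 members. These 3 genes were seen in more than a few cells at each stage, with Dhh in 38 and 264 and Lgi4 in 47 and 265 members. Cdh19, a cadherin of Schwann cell precursors, was at 278 and 116 CPM against 103 and 53.5 CPM, and Egfl8 at 197 and 68.9 CPM against 2.90 and 9.43 CPM. Ngfr, the low-affinity neurotrophin receptor, was in 10 medium and 24 large members only. Gldn (gliomedin), which gathers sodium channels at nodes of peripheral nerve, had 0 UMIs in medium and 112 in large members, at least 6.78-fold higher in the large ones. The Schwann cell genes did not share 1 direction between the stages, since Egfl8 had a log2 ratio of −1.52 in large over medium members and Dhh of 0.50.

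Other genes with counts in 1 stage alone were Ccdc80, a matrix protein, and Chrm3, a muscarinic receptor, both chosen after their values were seen, with 0 UMIs in medium members and at least 6.72-fold and at least 6.60-fold higher levels in large members. P2ry12, chosen in the same way, was at 5.02 CPM in medium and 47.1 CPM in large members, and 6.77 and 9.96 CPM in Pdgfra-type cells. Of genes on the sex chromosomes, Xist was at 0 and 2.43 CPM in medium and large members and the Y-linked Ddx3y at 50.2 and 58.3 CPM.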
